A study of Mus musculus with 12 samples.

Results

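The genes described here code for the enzymes that clear superoxide and hydrogen peroxide: the superoxide dismutases Sod1 and Sod2, catalase (Cat), the glutathione peroxidases Gpx1 and Gpx4, and the peroxiredoxins Prdx1, Prdx2, Prdx3, Prdx5 and Prdx6. These 10 genes were chosen by symbol, and each of them had a row among the 25239 gene symbols of the count table. RNA was sequenced from brain and from liver of male C57BL6/J wild-type (WT) mice aged 24 months, with 3 control and 3 heat stress libraries per tissue and 12 libraries in all. The heat stress mice were kept at 40 ± 0.5 °C and a relative humidity of 60 ± 5% for 3 h per day over 15 days, and all mice, controls included, were aged wild types. The study states 3 animals in each group, and the labels do not say which brain library and which liver library came from the same mouse. The part of the brain that was cut is not named in the sources used here, and at most 25 mg of frozen tissue entered each extraction.

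The members work in series. Superoxide dismutases turn superoxide into hydrogen peroxide and oxygen, and catalase, glutathione peroxidases and peroxiredoxins then reduce the peroxide to water, each in its own compartment and with its own source of electrons. Catalase, a haem enzyme, sits in peroxisomes and needs no outside electron donor, the glutathione peroxidases draw on glutathione, and most peroxiredoxins draw on thioredoxin. In liver, peroxisomes and mitochondria are large sources of hydrogen peroxide. In brain, lipid-rich membranes make lipid peroxides a prominent substrate, and these are the substrate of GPX4.

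Gpx1 and Gpx4 differ from the other members in their coding sequence. Both read an in-frame TGA codon as selenocysteine, the residue that carries out catalysis, and the remaining 8 members had neither an annotated selenocysteine nor an in-frame TGA in the transcript read. The stretches around the codon are shown because they set these genes apart as the members that depend on selenium. They were read from the GENCODE M21 models of Gpx1-201 and Gpx4-201 on GRCm38, the codon being number 47 of the coding sequence at chr9:108339451-108339453 for Gpx1 and number 129 at chr10:80054737-80054739 for Gpx4, both on the plus strand. Each is 5′ to 3′ with the TGA in capitals.
Gpx1: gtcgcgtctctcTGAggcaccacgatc
Gpx4: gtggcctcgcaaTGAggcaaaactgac

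The promoters were searched for the core of the antioxidant response element, TGACNNNGC, which NRF2 recognises, and for a pair of heat shock element units facing each other, GAANNTTC or TTCNNGAA, which heat shock factors recognise. Both strands of the 250 bases before each start were read from RefSeq promoters on GRCm38.p6, where 9 of the 10 members had an entry and Prdx6 had none. The antioxidant core letters occurred in 2 members, Sod1 and Prdx1, and in 10.2% of 32851 promoters. GAANNTTC occurred in 2 members, Sod1 and Prdx3, and in 6.69% of promoters. TTCNNGAA occurred in 0 members and in 7.17% of promoters. The matches are shown with their letters in capitals for the 3 members that hold any of these motifs, while the other 6 with an entry, Gpx4 and Gpx1 among them, hold none in this window. In Sod1 the antioxidant core lies 56 to 48 bases before the start at chr16:90220696-90220724, and GAANNTTC lies 188 to 181 bases before it at chr16:90220564-90220591. In Prdx1 the antioxidant core lies 133 to 125 bases before the start at chr4:116685456-116685484, and in Prdx3 GAANNTTC lies 180 to 173 bases before it at chr19:60874701-60874728. The coordinates span the printed stretch. Both antioxidant cores read TGACNNNGC on the strand opposite to the one printed, which is the gene's own.
Sod1 antioxidant core: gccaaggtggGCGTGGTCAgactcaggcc
Prdx1 antioxidant core: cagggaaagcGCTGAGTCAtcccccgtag
Sod1 heat shock element: ggctcctcggGAACTTTCtcagtccgca
Prdx3 heat shock element: aggtcaaaggGAAATTTCcccctgagct
The capitals of Prdx1 also hold TGANTCA, the AP-1 site, so the same bases match both motifs. Prdx1 was the 1 member with TGANTCA, which occurred in 6.75% of promoters and which Prdx1 held at 2 places. A match of letters is a description of the window and not a measured site of binding.

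The depth was 10466198 to 15609040 counts per library, and single member counts lay between 440 and 50382, so that every member passed the filter on low counts in each comparison. The labelled tissues matched their markers: 8 hepatocyte genes summed to 78164 to 122022 counts per 1000000 counts of the library (CPM) in liver and to 2.02 to 16.1 CPM in brain, and 8 neuronal genes to 6199 to 8513 CPM in brain and to 13.4 to 33.2 CPM in liver. The haemoglobin genes Hba-a1, Hba-a2, Hbb-bs and Hbb-bt were listed at 0 in all 12 libraries, so red blood cells, which are rich in Prdx2, catalase and Gpx1, could not be judged from them. In liver, control library 1 and heat stress library 2 carried skeletal muscle transcripts, with 8 genes summing to 382 and 2334 CPM. In bulk tissue, fewer cells of a type and less RNA per cell cannot be told apart.

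Control brain and control liver were compared first, to show how the RNA level of each member differed between the tissues in mice without heat stress. The members together took 0.148 to 0.184% of counts in control brain and 0.89 to 1.24% in control liver. Catalase was the member with the widest gap, followed by Gpx1, Prdx1 and Sod1, and these 4, with Prdx3 and Prdx6, were lower in brain under each scaling tried. The contrast used edgeR's quasi-likelihood test over all 12 libraries, with TMM scaling, a method that sets libraries to each other by the genes they share, and Benjamini-Hochberg adjustment over 15824 genes. A gene was called at an adjusted p under 0.05 and a log2 fold change past 1.

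Under TMM 9 of 10 members were called lower in brain, against 27.5% of all genes tested. The tenth, Prdx2, was also lower but by less than the size threshold. The members' median difference was -2.26 on the log2 scale, against 0.24 over all genes tested. Catalase differed by -6.80 ± 0.24 (SE), 111-fold, with an edgeR adjusted p of 3.32e-11. Gpx1 differed by -6.28 ± 0.35 or 77.6-fold (edgeR adjusted p 1.21e-09). Prdx1, the abundant cytosolic peroxiredoxin, differed by -4.23 ± 0.29 or 18.7-fold, and Sod1, the cytosolic copper and zinc enzyme, by -3.55 ± 0.21 or 11.7-fold. These 4 had the widest gaps between the tissues.

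The other 6 members lay closer together. Prdx6, a peroxiredoxin that also acts on phospholipids, differed by -2.33 ± 0.19, and Prdx3, the mitochondrial peroxiredoxin, by -2.20 ± 0.17 on the log2 scale. Gpx4 differed by -1.64 ± 0.25, Prdx5, which is found in mitochondria, peroxisomes and cytosol, by -1.53 ± 0.16, and Sod2, the manganese enzyme of the mitochondrial matrix, by -1.48 ± 0.15. The edgeR adjusted p-values of these 5 lay between 4.19e-08 and 3.15e-05. Prdx2 differed by -0.74 ± 0.17 (edgeR adjusted p 0.00117).

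For Sod2, Gpx4, Prdx5 and Prdx2 the direction depended on the scaling, while Prdx3 and Prdx6 were lower in brain under each. The TMM factors were 1.41 to 1.51 in brain and 0.622 to 0.722 in liver, and with library totals alone the median over all genes moved from 0.24 to 1.33. With totals alone 6 members stayed past the threshold, lower in brain in each case, against 15.5% of all genes. Sod2 then differed by -0.39, Gpx4 by -0.57 and Prdx5 by -0.44, while Prdx2 reversed to 0.34. Leaving out the factors moves all genes by nearly the same amount, so the distance from the median of all genes hardly can change. Prdx2 lay at -0.98 from it under TMM and -0.99 with totals, and Gpx4 at -1.88 and -1.90. These distances give the members' place among the genes and are no check on the scaling. As a share of transcripts per merged exon length (TPM, defined with the levels further on) the sign turned for 4 members, with Sod2 at 0.49, Gpx4 at 0.32, Prdx5 at 0.44 and Prdx2 higher still. The median over all genes tested was then 2.19. Per length of the coding transcript Sod2 stood at 0.079, Prdx5 at 0.03 and Gpx4 at -0.089, against a median of 1.79. The 100 highest genes of either tissue took 57.9% of TPM in liver and 19.7% in brain. With these left out, other than members, TPM per merged exon length gave -0.46 for Sod2, -0.62 for Gpx4 and -0.50 for Prdx5. The median was then 1.27, and Prdx2 was the 1 member higher in brain. In control libraries Sod2, Gpx4 and Prdx5 were thus lower in brain relative to other genes and as a share of counts, and their sign as a share of transcripts turned with the genes and the length counted.

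The heat stress groups gave the same tissue contrast in other mice. Again 9 of 10 members were called lower in brain, against 26.7% of genes, with differences from -7.08 for catalase to -1.11 for Gpx4, and Prdx2 stood at -0.67 (edgeR adjusted p 0.00232). Gpx4 was close to the size threshold and passed it no longer when heat stress liver library 1 was left out (-0.94, edgeR adjusted p 0.00538). With totals alone 5 members were called lower, against 15% of genes, Prdx2 reversed to 0.45 (edgeR adjusted p 0.0177), and Gpx4 stood at 0.0081.

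Levels were compared between genes as TPM, counts divided by the gene's merged exon length and scaled so that each library sums to 1000000. Means and SDs run over the 6 libraries of a tissue, heat stress included, and a pair counts as separated only where the ranges over those libraries do not overlap. In liver the order opened with Gpx1 at 4791 ± 1004 TPM, catalase at 2486 ± 180.0, Prdx1 at 1299 ± 264 and Sod1 at 643 ± 65.1. The first 3 were each separated from the next lower gene. Sod1 and Gpx4 at 505 ± 93.6 were not separated, nor were Prdx5 at 309.6 ± 28.5, Prdx6 at 301 ± 27.6 and Prdx3 at 234 ± 30.4 from the next in order among themselves. Prdx2 at 129.9 ± 11.5 and Sod2 at 40.0 ± 3.20 closed the order, each below the whole range of the gene above it. Gpx1 and catalase took 43.8 ± 5.61% and 23.1 ± 3.84% of the members' summed TPM in control liver (SD, n = 3).

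In brain the order was another one. Gpx4 stood at the top with 748 ± 168 TPM and was separated from Prdx5 at 417 ± 25.2. Prdx1 at 349.8 ± 85.2, Prdx2 at 302 ± 20.9, Gpx1 at 266 ± 46.5, Prdx6 at 229 ± 19, Sod1 at 223 ± 26.7 and Prdx3 at 218 ± 31.4 followed, and no neighbours from Prdx5 down to Prdx3 were separated. Catalase at 76.9 ± 10.3 and Sod2 at 57.0 ± 4.97 were the lowest and were separated from each other. Catalase thus took the second place of the liver order and the ninth of the brain order. Gpx4 took 23.6 ± 1.61% of the members' summed TPM in control brain and 4.65 ± 0.434% in control liver (SD, n = 3).

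The length used bears on these orders. Merged exons include retained introns, and for Sod1 they came to 3970 bases against 641 for the median coding transcript. Per base of the coding transcript Prdx1 at 673, Sod1 at 577, Gpx4 at 562 and Prdx5 at 519 TPM led in brain, and no neighbours among these 4 were separated. Their order differed between the groups: in control brain Gpx4 at 462 TPM stood below Prdx5 at 500.3, Sod1 at 518 and Prdx1 at 552, and in heat stress brain Gpx4 at 663 stood second to Prdx1 at 795. Catalase was then last in brain at 49.4 TPM. In liver Gpx1 stayed first at 4794 TPM, before Prdx1 at 3272, Sod1 at 2174 and catalase at 2089, and no neighbours among these 4 were separated. Gpx1, at 3831 to 6295 TPM, was separated from Sod1 at 1997 to 2595 TPM and from catalase at 1979 to 2320.2 TPM, and Prdx1, from 2465 TPM upwards, was separated from catalase. By this length Gpx1 took 33.1 ± 4.86% and catalase 14.6 ± 2.45% of the members' summed TPM in control liver (SD, n = 3). Prdx1 took 24.8 ± 4.50% and Sod1 14.8 ± 1.98% there. Gpx4 took 15.6 ± 1.09% in control brain and 3.44 ± 0.290% in control liver.

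**Figure D1:**
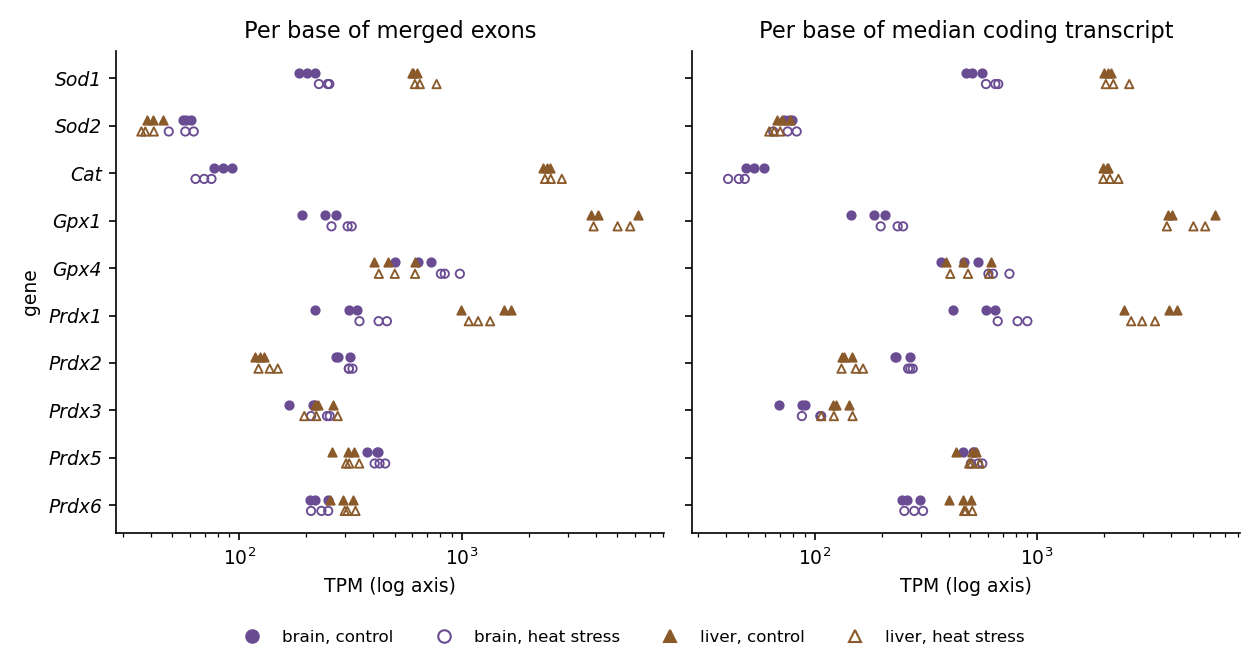
TPM on a log axis for each member in the 12 libraries, per base of merged exons (left) and per base of the median coding transcript (right), with brain as circles, liver as triangles, control filled and heat stress open. Catalase and Gpx1 show the widest gap between tissues on both panels. Gpx4 and Prdx3 overlap between tissues on the left panel, and Sod2, Gpx4 and Prdx5 on the right panel.

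In brain, heat stress was compared with control to ask whether these enzymes respond to the periodic heat. No member passed an adjusted p under 0.05, and 0 of the 14806 genes tested did (0%), the smallest edgeR adjusted p over all genes being 0.17. At an unadjusted p under 0.05 there were 5 of 10 members with higher values in heat stress (Gpx4, Prdx1, Sod1, Gpx1 and Prdx3) and 0 with lower values, where 10% of all genes tested were higher by this rule and 10% lower. By log2 difference 9 members were above 0 and 1, catalase, below it, and their median was 0.30 against -0.003 over all genes.

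Gpx4, which reduces lipid peroxides in membranes and whose loss leads to ferroptosis, stood at 203, 313 and 252 TMM-normalized CPM in the 3 control brains and at 368, 457 and 348 CPM in the 3 heat stress brains. The groups did not overlap, and the lowest heat stress value lay above the highest control. The log2 difference was 0.61 ± 0.18 (SE), 1.53-fold, with an edgeR unadjusted p of 0.00775 and an adjusted p of 0.17.

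Prdx1 had 158, 258 and 217 CPM in control and 327, 379 and 264 CPM in heat stress. Here the groups were set apart only narrowly, between control library 2 and heat stress library 3. The log2 difference was 0.62 ± 0.20, 1.54-fold (edgeR adjusted p 0.172). Sod1 had 174, 218 and 183 CPM against 252, 272 and 227 CPM, again without overlap, a log2 difference of 0.39 ± 0.13 (edgeR adjusted p 0.182).

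Gpx1 had 64.7, 98.5 and 80.9 CPM in control and 112, 125 and 93.7 CPM in heat stress. Its groups overlapped, heat stress library 3 lying below control library 2, and the log2 difference was 0.44 ± 0.17 (edgeR adjusted p 0.206). Prdx3 overlapped in the same pair of libraries, with 58.1, 80.6 and 72.5 CPM against 95.7, 99.0 and 77.7 CPM and a log2 difference of 0.37 ± 0.15 (edgeR adjusted p 0.22). In all 5 genes control library 1 was the lowest of the 6 libraries and heat stress library 2 the highest.

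Catalase had the opposite sign. It stood at 57.0, 50.2 and 50.5 CPM in control and at 49.9, 49.1 and 41.6 CPM in heat stress, which leaves the groups just apart. The log2 difference was -0.17 ± 0.12 (edgeR adjusted p 0.442), and with single libraries left out it ranged from -0.22 to -0.09. Counted over members, 3 were higher without overlap (Gpx4, Prdx1, Sod1), against 12.9% of all genes, and 1 was lower without overlap, against 12%.

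For the remaining 4 members the groups overlapped. Sod2 had 131, 145 and 139.7 CPM in control and 159, 130.3 and 143 CPM in heat stress, a log2 difference of 0.056 ± 0.11. Prdx2, an abundant peroxiredoxin of neurons and red blood cells, had 196, 241 and 195 CPM against 250.5, 256 and 237 CPM and a difference of 0.23 ± 0.13. Prdx5 had 189.8, 223 and 207 CPM against 246, 247 and 217 CPM (0.20 ± 0.12), and Prdx6 had 247, 300.5 and 231 CPM against 257, 326 and 282 CPM (0.15 ± 0.15). The edgeR adjusted p-values of these 4 lay between 0.32 and 0.808. With single libraries left out Prdx6 ranged from 0.05 to 0.26. Exons of Prdx2 share bases with Rnaseh2a and Junb on the other strand, and those of Prdx5 with Trmt112, and whether the counting used strand is not given in the sources used here.

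The members' share of all counts was 0.148 to 0.184% in control brain and 0.194 to 0.234% in heat stress brain, without overlap. Within that share Gpx4 made up 23.6 ± 1.61% of the summed TPM per merged exon length in control and 27.6 ± 1.43% in heat stress. Prdx1 made up 11.0 ± 1.18% and 12.9 ± 0.947%, and catalase 3.29 ± 0.714% and 2.19 ± 0.143% (SD, n = 3). Per base of the coding transcript Gpx4 made up 15.6 ± 1.09% and 18.2 ± 0.978%, and Prdx1 18.6 ± 2.02% and 21.8 ± 1.56%. Catalase then made up 1.87 ± 0.402% and 1.24 ± 0.0779%.

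**Figure D2:**
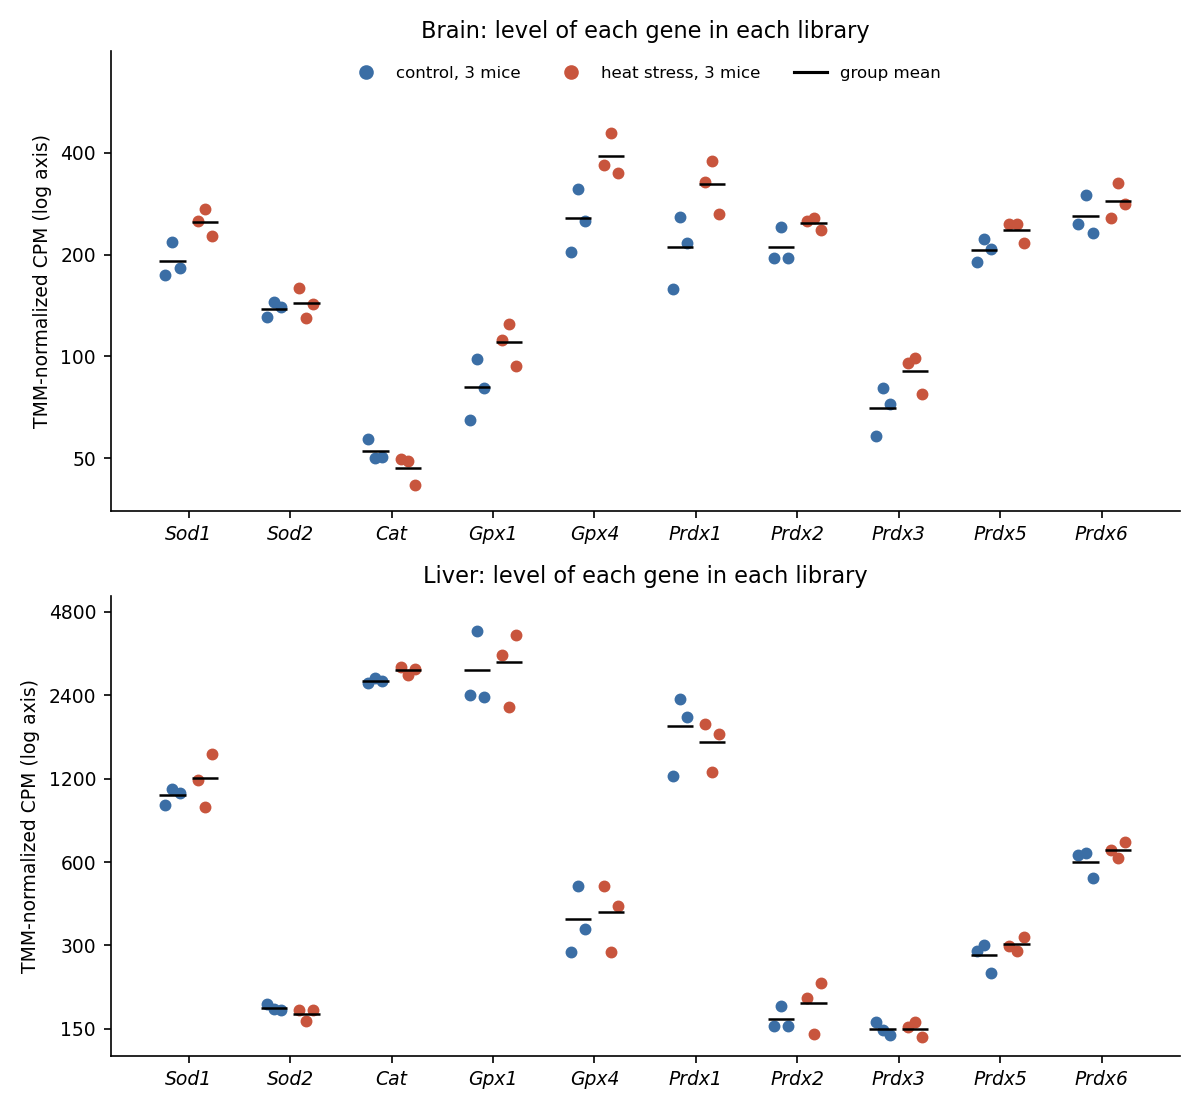
TMM-normalized CPM of each member on a log axis in brain (top) and liver (bottom), with a point per library, control in blue, heat stress in red and the group mean as a black line. In brain the heat stress points of Gpx4, Prdx1 and Sod1 lie above all control points and those of catalase below, and in liver only catalase is set apart.

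Several measures moved with the brain groups beside these genes. Shorter transcripts had higher values in heat stress brain across genes: Pearson's r of the log2 difference with log2 transcript length was -0.321 over 14562 genes, as a description across genes, which are not independent. Genes with transcripts of up to 1288 bases had a median of 0.144, genes with 3503.5 bases or more had -0.159, and 5 of the 10 members were among the former. After length and GC content had been corrected with smooth curves library by library, 3 members had an unadjusted p under 0.05 (Gpx4 at 0.57, Gpx1 at 0.38 and Sod1 at 0.26), all higher, where 7.21% of all genes were higher by this rule in place of 10%. Prdx1 then stood at 0.27 ± 0.13 in place of 0.62 (edgeR unadjusted p 0.0681) and Prdx3 at 0.19 ± 0.12 in place of 0.37. Catalase remained at -0.17.

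Markers of other cells also differed between the brain groups. All 8 striatal neuron genes tested had an unadjusted p under 0.05 with a median log2 difference of 1.15, and their sum was 429 to 744 CPM in control and 785 to 1672 CPM in heat stress. The 7 choroid plexus genes had a median of -1.37, with 4 at an unadjusted p under 0.05, and summed to 1193 to 2589 CPM against 262 to 1134 CPM. All 6 endothelial genes were at an unadjusted p under 0.05, with a median of -1.04 and sums of 107 to 225 CPM against 73.3 to 93.9 CPM. Of the 6 microglia genes 2 were at an unadjusted p under 0.05, with a median of 0.05, and of the 6 astrocyte genes 1 was, with a median of -0.21. Of the 8 neuronal and 6 oligodendrocyte genes 0 were. The part of these cell types in the members' values was not tested.

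With single libraries left out, the number of members higher at an unadjusted p under 0.05 moved, and so did the share of all genes. It was 1 without heat stress library 2, namely Gpx4, where 4.85% of all genes were higher by this rule. It was 2 without control library 3, namely Gpx4 and Prdx1, where 6.44% of genes were. It was 3 without control library 1 and without heat stress library 1 (Gpx4, Prdx1 and Sod1 in both), where 5.12% and 6.84% of genes were. It was 5 without heat stress library 3 and 6 without control library 2, where 9.66% and 13.6% of genes were. With all 12 libraries sharing a spread it was 2, Gpx4 and Prdx1, where 5.04% of genes were. DESeq2 called Gpx4 (adjusted p 0.0228) and Prdx1 (adjusted p 0.0331) at an adjusted p under 0.05. By this rule 1.56% of 20018 genes were called higher, a base that was not filtered on low counts as the edgeR base was.

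In liver, heat stress and control gave no call among the members. Of 10 members 0 passed an adjusted p under 0.05, where 0% of 12296 genes tested did, and 0 had an unadjusted p under 0.05, where 5.84% of genes did. DESeq2 also called 0 members, where 0.342% of 17860 genes, not filtered on low counts, were called. The log2 differences ran from -0.18 for Prdx1 to 0.21 for Sod1, with a median of 0.11 against 0.011 over all genes. With single libraries left out Sod1 ranged from 0.02 (without heat stress library 3) to 0.35 (without heat stress library 2), and Prdx1 from -0.42 (without control library 1) to 0.011 (without control library 2). Over all 6 libraries the smallest edgeR adjusted p among members was 0.947.

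Catalase was the 1 member whose liver groups did not overlap, where 5.38% of genes were higher and 5.73% lower without overlap. It had 2661, 2776 and 2701 CPM in control and 3044, 2854 and 2982 CPM in heat stress, a log2 difference of 0.13 ± 0.19 (edgeR adjusted p 0.965). Its direction was thus the reverse of that in brain, and the interaction, the heat effect in liver minus that in brain, was 0.28 ± 0.26 (edgeR adjusted p 0.711).

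Gpx1 ranged more widely within each group than between them. It had 2404, 4097 and 2358 CPM in control and 3352, 2187 and 3973 CPM in heat stress, with a log2 difference of 0.10 ± 0.30. Gpx4 had 283, 490.3 and 345 CPM against 493, 283 and 416 CPM, and Prdx1 had 1231, 2323 and 2009 CPM against 1892, 1269 and 1737 CPM. In Gpx4 and Prdx1 control library 1 and heat stress library 2, those with skeletal muscle transcripts, were the lowest of their group. Without them the log2 differences of the 10 members again gave 0 calls, where 0.662% of genes were called.

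The groups also overlapped for the superoxide dismutases and the other peroxiredoxins. Sod1 had 967, 1100.0 and 1066 CPM in control and 1192, 947 and 1474 CPM in heat stress, and Sod2 had 185, 177 and 175 CPM against 175, 160.3 and 175 CPM. Prdx3 had 159, 148 and 143 CPM against 152, 159 and 139.7 CPM, with a log2 difference of 0.0012 ± 0.17. Prdx2, Prdx5 and Prdx6 had differences of 0.18 ± 0.20, 0.13 ± 0.18 and 0.14 ± 0.19. With single libraries left out these ranged from 0.03 to 0.34, from 0.04 to 0.2 and from 0.05 to 0.19.

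**Figure D3:**
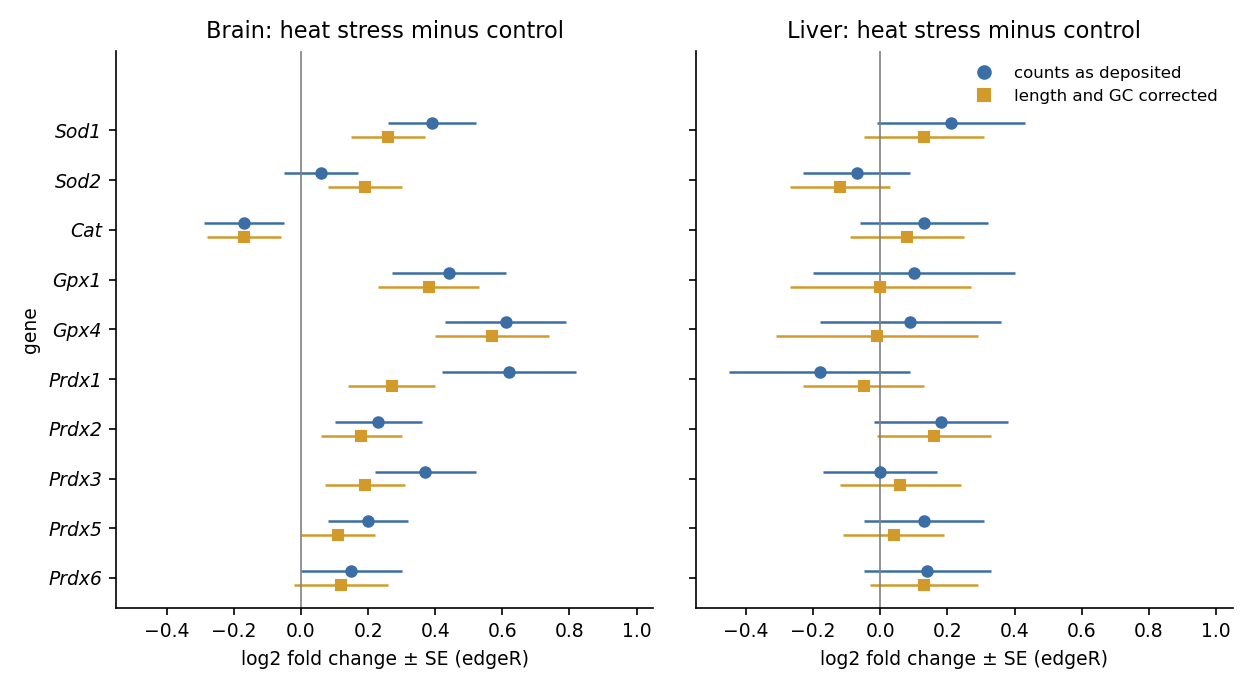
Log2 fold change of heat stress minus control with its standard error from edgeR for each member in brain (left) and liver (right), from the deposited counts (circles) and after correction for transcript length and GC content (squares). In brain Prdx1 moves from 0.62 to 0.27 with the correction while Gpx4 moves from 0.61 to 0.57, and in liver each standard error bar crosses 0.

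A mark in the column names also went with the members' values in liver. The names of 3 libraries, control 2, heat stress 1 and heat stress 3, end in the suffix 2nd, which the sources used here do not explain, and these were looked at after the values had been seen. In 6 of 10 members (Sod1, Gpx1, Gpx4, Prdx2, Prdx5 and Prdx6) the 3 libraries with the suffix lay above the 3 without, where 8.50% of the 12296 genes did. Gpx1 had 4097, 3352 and 3973 CPM with the suffix and 2404, 2358 and 2187 CPM without it. In a fit with condition as the other term, the suffix came with a log2 difference of 0.76 ± 0.19 for Gpx1 (edgeR adjusted p 0.243) and 0.66 ± 0.18 for Gpx4 (edgeR adjusted p 0.247). The suffix was chosen for a closer look because of these values, so they are a description of these libraries.

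Within the suffix the heat differences rest on an arm of 1 library each, so they have no replicate check and are given as values alone. Gpx1 differed by -0.17 among the libraries with the suffix (1 control, 2 heat stress) and by -0.12 among those without (2 control, 1 heat stress), in place of 0.10 over all 6. Gpx4 differed by -0.12 and -0.14 in place of 0.09, and Prdx1 by -0.36 and -0.31. Catalase stood at 0.12 and 0.09. For Sod1, with 0.27 and -0.10, and Prdx2, with 0.18 and -0.10, the sign differed between the libraries with and without the suffix. Across genes the suffix difference had a Pearson's r of -0.251 with log2 transcript length and -0.293 with GC content over 12134 genes. After the correction for both Gpx1 stood at 0.73 and Gpx4 at 0.69. Prdx1 moved from 0.52 to 0.11, Sod1 from 0.3 to 0.14, Prdx5 from 0.16 to 0.07 and Prdx6 from 0.15 to 0.12. Prdx2 moved from 0.38 to 0.33, catalase from 0.06 to 0.08, Sod2 from 0.05 to 0.22 and Prdx3 from -0.08 to -0.28. Both libraries with skeletal muscle transcripts lack the suffix.

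**Figure D4:**
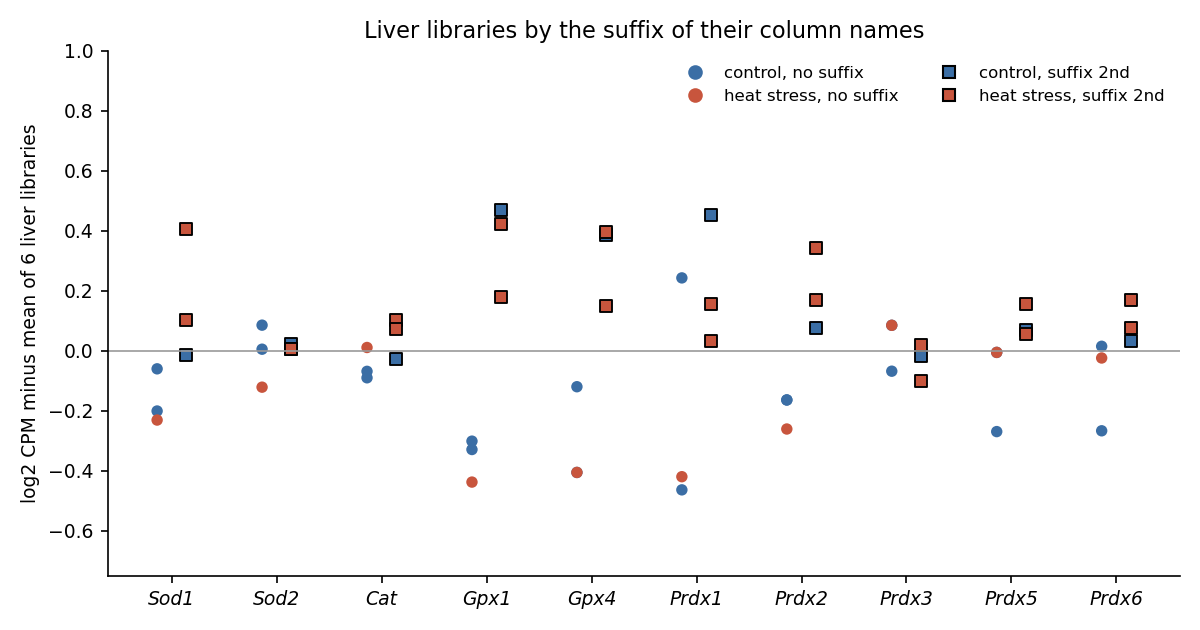
Log2 CPM of each member in the 6 liver libraries, relative to their mean, with libraries without the suffix as circles and those with the suffix 2nd as outlined squares, control in blue and heat stress in red. The squares of Gpx1, Gpx4, Prdx2 and Sod1 lie above all circles of the same gene whatever the condition.

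The heat effect was compared between the tissues in the fit of 4 groups. Of 15824 genes 1 was called (0.00632%), and 0 members were. Prdx1 had the largest interaction, -0.80 ± 0.37, lower in liver than in brain, with an edgeR unadjusted p of 0.0478 and an adjusted p of 0.516, and 5.91% of genes were lower by the unadjusted rule. The other interactions lay between -0.52 for Gpx4 and 0.28 for catalase. A heat effect on Gpx4 or Prdx1 that is present in brain and absent in liver was therefore not shown by these libraries.

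The other genes of peroxide metabolism were taken as 77 genes in 7 groups. The list first held Pmp22 as well, placed among the peroxisome genes although it codes for peripheral myelin protein 22, and it is left out of the counts given here. In brain 0 of the 69 tested passed the adjusted threshold, and 6 had a higher and 5 a lower value at an unadjusted p under 0.05, where 10% of genes did in each direction. In liver 0 of the 72 tested passed, with 4 higher and 4 lower at an unadjusted p under 0.05, where 2.97% of genes were higher and 2.87% lower.

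Of the nearest relatives, Prdx4, the peroxiredoxin of the endoplasmic reticulum, had 18.6 ± 3.34 CPM in control brain and 27.3 ± 5.41 CPM in heat stress brain (SD, n = 3), a log2 difference of 0.56 ± 0.18 (edgeR unadjusted p 0.0138, adjusted p 0.174). Sod3, the secreted dismutase, had 13.6 ± 2.38 and 9.17 ± 2.91 CPM in brain, a difference of -0.57 ± 0.24 (edgeR adjusted p 0.229). In liver, Gpx3, the secreted glutathione peroxidase of plasma, had 5.17 ± 1.02 CPM in control and 12.6 ± 6.55 CPM in heat stress, without overlap, a difference of 1.28 ± 0.35 (edgeR unadjusted p 0.00451, adjusted p 0.472). The heat stress values were 8.04, 20.1 and 9.54 CPM, the highest being that of library 2, which carried the most skeletal muscle transcripts. Without library 2 the difference was 0.76 (edgeR adjusted p 0.946), and without both libraries with such transcripts it was 0.84 (edgeR adjusted p 0.273). In brain Gpx3 differed by 0.45 ± 0.61, with a range from -0.18 (without heat stress library 1) to 1.00 (without control library 2). Gpx6, another glutathione peroxidase, was too low in brain to be tested. It had 0.343, 0.349 and 0.162 CPM in control brain and 0.739, 1.34 and 2.74 CPM in heat stress brain, without overlap. In liver Gpx6 differed by 0.69 ± 0.48, and with single libraries left out by 0.22 (without heat stress library 2) to 1.38 (without control library 1). Sod3 stood at 0.31 ± 0.32 there and ranged from 0.077 (without control library 2) to 0.79 (without control library 1). Prdx4 stood at -0.18 ± 0.24 and ranged from -0.39 (without control library 1) to -0.015 (without heat stress library 2).

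The supply genes and the thioredoxin cycle gave these values. In brain Pstk, a kinase on the way to selenocysteine tRNA, differed by 0.43 ± 0.12 (edgeR unadjusted p 0.00708, adjusted p 0.17) and Sephs2, which makes selenophosphate, by 0.32 ± 0.14 (edgeR adjusted p 0.241). Of the 8 genes of metal and selenium supply 2 were higher at an unadjusted p under 0.05, where 10% of all genes were. Ccs, the copper chaperone of Sod1, differed by -0.04 ± 0.12. In the thioredoxin and glutaredoxin cycle 1 of 14 genes was higher by that rule, beside the same 10% of all genes. This was Glrx5, a mitochondrial glutaredoxin, at 0.38 ± 0.14. Txn1, thioredoxin itself, differed by 0.33 ± 0.16, and Srxn1, sulfiredoxin, which repairs overoxidised peroxiredoxins, by -0.11 ± 0.10. Txn1 ranged from 0.21 (without control library 1) to 0.47 (without control library 2). Srxn1 ranged from -0.17 (without heat stress library 1) to -0.078 (without heat stress library 2). In liver 0 of these supply and cycle genes had an unadjusted p under 0.05, where 5.84% of all genes did. Txnip, which binds thioredoxin, differed there by 0.66 ± 0.36, by 0.30 without control library 1 and by 1.12 without control library 3. Glrx5 differed by 0.28 ± 0.17, Srxn1 by 0.10 ± 0.16 and Txn1 by -0.03 ± 0.20. With single libraries left out Glrx5 ranged from 0.18 to 0.35 and Srxn1 from 0.045 to 0.17. Txn1 changed sign, from -0.12 (without control library 1) to 0.094 (without control library 2). Secisbp2, which binds the selenocysteine insertion element, stood at -0.20 ± 0.18 and Ccs at 0.17 ± 0.18. Ccs ranged from 0.062 (without control library 3) to 0.23 (without control library 1).

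Of the genes of glutathione synthesis and reduction, 1 was higher and 1 lower at an unadjusted p under 0.05 among 9 tested in brain, where 10% of all genes were in each direction. In liver 1 was higher and 1 lower among 8 tested, where 2.97% of genes were higher and 2.87% lower. Ggct, which cleaves gamma-glutamyl amino acids, stood at 0.35 ± 0.13 in brain and -0.57 ± 0.24 in liver. Chac1, which degrades glutathione, stood at -0.48 ± 0.21 in brain and 0.96 ± 0.35 in liver, the latter at 1.08 ± 0.191 CPM in control and 2.10 ± 0.509 CPM in heat stress. The edgeR adjusted p-values were 0.197 to 0.236 in brain and 0.779 to 0.846 in liver.

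Of the peroxisome genes, 2 of 8 were lower in brain at an unadjusted p under 0.05, where 10% of all genes were. These were the import factors Pex6 at -0.31 ± 0.11 and Pex5 at -0.31 ± 0.12. In liver 0 of 8 had an unadjusted p under 0.05, where 5.84% of genes did, and Pxmp2, a membrane channel, stood at 0.20 ± 0.18. Among the sources of superoxide and peroxide 1 of 15 tested was higher in brain by that rule, where 10% of genes were. In liver 2 were higher and 3 lower of 18 tested, where 2.97% of genes were higher and 2.87% lower. Hao2, a peroxisomal hydroxyacid oxidase, had 3.43 ± 1.69 CPM in control liver and 0.940 ± 0.235 CPM in heat stress liver, without overlap, a difference of -1.87 ± 0.45 (edgeR unadjusted p 0.00193, adjusted p 0.424). Rac2, a subunit that activates the phagocyte oxidase, stood at 0.78 ± 0.24 in liver (edgeR adjusted p 0.604), and Cyba, a membrane subunit of that oxidase, at 0.42 ± 0.19 in brain (edgeR adjusted p 0.246). Maoa, a monoamine oxidase of the outer mitochondrial membrane, stood at 0.35 ± 0.16 in brain (edgeR adjusted p 0.256). It ranged from 0.22 (without control library 1) to 0.48 (without control library 2). Of the regulators 1 of 10 was lower in brain at an unadjusted p under 0.05, Foxo3 at -0.36 ± 0.16, where 10% of genes were. In liver 0 had an unadjusted p under 0.05, where 5.84% of genes did. Sp1 stood at -0.28 ± 0.14 in brain, and Foxo3 at 0.44 ± 0.27 and Bach1, a repressor at antioxidant response elements, at 0.41 ± 0.20 in liver.

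Between the tissues, 48 of the 73 listed genes tested were called lower in control brain and 6 higher under TMM, against 27.5% and 37.2% of all genes. Ccs differed by -4.10 ± 0.18, beside -3.55 for its client Sod1, Txn1 by -3.60 ± 0.20 and Prdx4 by -3.74 ± 0.24. Sod3 differed by -1.40 ± 0.35 and Gpx3 by 0.91 ± 0.58 (edgeR adjusted p 0.161). All 8 peroxisome genes were lower in brain under TMM. Pmp22, left out of these counts, was higher in brain by 2.42 ± 0.21 (edgeR adjusted p 1.24e-07). Srxn1 differed by -0.05 ± 0.15 under TMM (edgeR adjusted p 0.743). Scaled within each tissue it stood at 106 ± 0.475 CPM in control brain and 50.6 ± 4.74 CPM in control liver (SD, n = 3). In the same way Sod3 stood at 13.6 ± 2.38 and 16.2 ± 8.10 CPM and Gpx3 at 21.3 ± 13.4 and 5.17 ± 1.02 CPM. The direction for Srxn1 and the size for the others thus depended on the scaling.

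The genes whose pattern over libraries was most like the mean log2 CPM of the members included, in brain, Echs1 and Cct4, each with a Pearson's r of 0.999 over 6 libraries. The pattern was widely shared, since 1447 of 14796 genes had an r above 0.9. In liver they were Urah (0.995), Polr2f (0.992) and A430005L14Rik (0.992), and 345 of 12286 genes had an r above 0.9. The libraries share depth, length and composition differences, and these values are a description with no test.

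By GENCODE M21 on GRCm38 the members lie apart from each other, on 9 chromosomes. Sod1 is at chr16:90220754-90226329, Sod2 at chr17:13006846-13040063, Cat at chr2:103453849-103485160, Gpx1 at chr9:108338903-108340343 and Gpx4 at chr10:80047166-80056439. Prdx1 is at chr4:116685544-116700822, Prdx2 at chr8:84969587-84974834, Prdx3 at chr19:60864051-60874556, Prdx5 at chr19:6906697-6910106 and Prdx6 at chr1:161240112-161251219. No member shared exon bases with another gene on its own strand.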

How the data were processed

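Messenger RNA of 12 libraries was enriched with oligo-dT and sequenced from stranded libraries. The authors deposited a table of read counts per gene symbol, without normalization. Their methods describe the counting in 2 ways: the submitters' processing notes name Trimmomatic 0.39, HISAT2 2.2.1 and featureCounts from Subread 2.0.1 on mm10, and another passage names Tophat2 and HTSeq. The annotation and the strand setting are not given in the sources used here. The deposited tables of log2 fold changes and p-values by the authors were not used. Single-library columns left unused numbered 0.

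The counts were tested in R 4.3.3 with edgeR 4.0.16 (robust quasi-likelihood, TMM, filterByExpr at min.count 10 and min.total.count 15, Benjamini-Hochberg), within a tissue for heat stress and over all 12 libraries in 4 groups for the tissue and interaction contrasts. The SE of a log2 difference was taken as its size divided by √F. The procedures were tested on simulated data, with a minimum recovery required only for a change larger than any heat difference of the members. Passing it therefore does not show that differences of the members' size would be called. GENCODE M21 models on GRCm38 (mm10) gave lengths and positions, and 24366 of 25239 symbols matched. Alternatives were RLE, upper quartile and no scaling factors, DESeq2 1.42.0, other filters, each replicate left out, the replicate number as a block, a length and GC correction, and the suffix 2nd as a covariate. The use of library totals alone and the comparison by suffix were chosen after seeing the data.

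The members and lists were chosen with earlier results of these data known. All 10 members were named, and of each group of the further genes those called, the 2 with the smallest p per tissue, and Sod3, Ccs, Prdx4, Gpx3, Srxn1 and Txn1. Of those called between the tissues most are given by count alone. Pmp22, a myelin gene listed among the peroxisome genes by mistake, was taken out of the counts after its values had been seen. A gene that the rule on patterns most like the members would name is not reported here. Numbers shared by control and heat stress libraries did not pair them (correlations of deviations -0.223, 0.26 and -0.097 in brain, and -0.61, -0.532 and -0.11 in liver). Same-numbered control brain and control liver libraries had correlations of 0.372, 0.365 and 0.12, and heat stress ones 0.054, -0.214 and 0.031. Liver control library 1 and liver heat stress library 2, which come from different mice, reached 0.559. Such values therefore cannot show that a brain and a liver library share a mouse, and the main fits used no pairing.

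At a depth of 10466198 to 15609040 counts, member counts of 440 to 50382 carry a counting error of 4.77 to 0.446%, beside a standard deviation within groups of 2.14 to 33.6% of the mean (median 12.0%). An exact permutation test of 3 against 3 libraries cannot go below a two-sided p of 0.1.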

Additional observations from a re-analysis of the deposited data

How the results depend on the processing

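In brain 0 members were called at an adjusted p under 0.05, 2 with DESeq2 (Gpx4 0.61 and Prdx1 0.62) and 5 at an unadjusted p, and the replicate block, alone or with the length and GC correction, gave 0. In liver 0 members were called under every alternative run, and the replicate block gave 0 as well. Between the tissues 9 members were called in control libraries and 9 in heat stress libraries, and the replicate block gave 9 in both. With library totals only, 5 were called in heat stress libraries. Over 820 refits of single members under the alternatives, 771 kept direction and call and 40 changed sign. With the direction kept, 7 lost and 2 gained the call. Among those that changed sign, Gpx4 between the tissues in heat stress libraries with library totals only lost its call as well.

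Single members changed sign as follows. Liver Gpx1 was -0.0032 with the length and GC correction and -0.14 with the suffix as a covariate. Liver Gpx4 was -0.014 with that correction, -0.019 with the replicate block added and -0.13 with the suffix. Liver Prdx3 was -0.017 with RLE, -0.0025 with upper quartile factors, -0.02 with DESeq2, -0.012 without a filter, -0.026 with library totals only, -0.022 with all 12 libraries and -0.012 without both libraries with muscle transcripts. With library totals only, Prdx2 between the tissues was 0.34 in control and 0.45 in heat stress libraries and Gpx4 was 0.0081 in heat stress libraries. The interaction of Prdx6 was 0.0097 with RLE, 0.0084 with DESeq2 and 0.029 without a filter. With each replicate left out in turn, brain Sod2 ranged from -0.025 to 0.12, liver Gpx1 from -0.10 to 0.41, Gpx4 from -0.11 to 0.34, Prdx1 from -0.42 to 0.011 and Prdx3 from -0.041 to 0.037. The interaction ranged from -0.19 to 0.072 for Prdx2, from -0.19 to 0.011 for Prdx5 and from -0.14 to 0.12 for Prdx6. The cause of these changes was not tested.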
